A study of Gasterosteus aculeatus with 242 samples.

Results

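Father-reared male threespine sticklebacks are the subject here: 57 of the 242 brain libraries of the series, chosen by their labels as Day 10 (raised by the father) and male. Of these, 26 had been in the open field and 31 were baseline fish, from 8 families. In this species (Gasterosteus aculeatus) the male alone builds the nest, fans the eggs and guards the fry, and the series asks how that care bears on the offspring's brain and behaviour. The offspring had wild-caught fathers from Putah Creek in a half-sib design, and were 6 to 8 months old and not yet mature. Open-field males spent 10 minutes alone in a pool, then a model sculpin, a predatory fish, made a circuit of it, and the brain was taken 60 minutes after that attack. Baseline males came straight from a home tank; per the labels each was the full sibling of an open-field fish, of either sex, dissected within 30 minutes of it. Baseline fish did not enter the pool, so handling, the new place, isolation and the model all differ between the groups at once. All 57 fish share the father's care, and the hand-reared fish (Day 0) used below for comparison lacked it. The samples are wild-derived fish, and no line, transgene or pooling of animals is recorded in the labels.

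In vertebrate brains, a new place or a threat drives neural activity, and active neurons switch on a set of rapid-response genes within minutes to an hour, many of them transcription factors and signalling regulators. Stress hormones released in the same period change a further set of genes. The deposited table names genes only by Ensembl identifier, and 0 of 22456 identifiers matched the reference table of 52177 named genes, so none of the genes below can be assigned to these classes, and no tissue or cell-type marker could be looked up. Identifiers are therefore printed for 2 genes, and the other genes that rose are called by their rank, with rank 1 the lowest p. No sequence is shown because no sequence belonging to these identifiers was at hand.

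Messenger RNA was counted by 3′ tag sequencing, in which a count stands for a transcript end. Levels are given in CPM, counts in each 1000000 of a library, with TMM scaling, which corrects for library size and composition. The 57 libraries held 726863 to 1527122 counts, with medians of 990756 in baseline and 1002085 in open-field males, and the median library detected 13561 genes. No library stood apart by its correlation with others: the median value for a library within its group lay between 0.911 and 0.942. As a check of the sex labels, the gene with the largest sex difference in hand-reared fish lay between 58.8 and 208.7 CPM in these 57 males and at most at 15.5 CPM in the 61 father-reared females. Open-field males were 14 left and 12 right brain sides, and baseline males 13 left and 18 right. Plate 2, read from the leading digit of the library name, held 15 of the open-field and 12 of the baseline males, plate 1 held 7 and 11, and plate 3 held 4 and 8. Each side and plate thus held both groups. In tissue pieces, a change in the number of cells of a type and a change in RNA per cell cannot be told apart.

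Exposure to the open field raised 10 genes and lowered 0 in the brains of father-reared males. The 10 are 0.145% of the 6920 genes tested, by edgeR's quasi-likelihood test at an adjusted p under 0.05 with family, brain side and plate in the model. Rises ran from 1.31-fold to 2.73-fold, and 8 of the 10 exceeded 1.5-fold. Over all 6920 genes the median log2 fold change was 0.0012. At an unadjusted p under 0.05 there were 424 genes, 6.13% of those tested, and the part lower in open-field males, 2.76% of all tested, gave 0 calls after adjustment. DESeq2 called 11 genes that rose and 0 that fell. For 96.1% of genes the 95% interval of the fold change lay within 1.5-fold of no change, so larger responses lay outside the interval for most genes tested.

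ENSGACG00000017076 had the lowest p. In the 31 baseline males it ranged from 17.4 to 116.3 CPM with a median of 41.9, and in the 26 open-field males from 60.1 to 186.5 CPM with a median of 97.3. The groups overlapped at their edges: 26 of 31 baseline fish lay below the lowest open-field fish, 8 open-field fish lay above the highest baseline fish, and 1 baseline fish, 07C5, lay above the open-field median. Means were 46.4 ± 19.2 CPM (SD, n = 31) and 102.5 ± 27.5 CPM (SD, n = 26), a fitted 2.32-fold rise (log2 fold change 1.22, SE 0.12, edgeR adjusted p = 7.8e-10).

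ENSGACG00000010476 had the largest fold change of the 10. It ranged from 7.58 to 60.5 CPM with a median of 26.9 in baseline males, and from 37.4 to 134.9 CPM with a median of 84.2 in open-field males. Of the 26 open-field fish, 22 lay above every baseline fish, and no baseline fish reached the open-field median. Means were 28.6 ± 14.8 CPM (SD, n = 31) and 82.7 ± 23.5 CPM (SD, n = 26), a fitted 2.73-fold rise (log2 fold change 1.45, SE 0.16, edgeR adjusted p = 2.6e-08). The SD of log2(CPM + 1) for this gene was 0.81 at baseline and 0.44 after the open field, and for ENSGACG00000017076 0.54 and 0.37, whereas the SDs in CPM above were the smaller at baseline. The difference in spread was not tested.

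**Figure D1:**
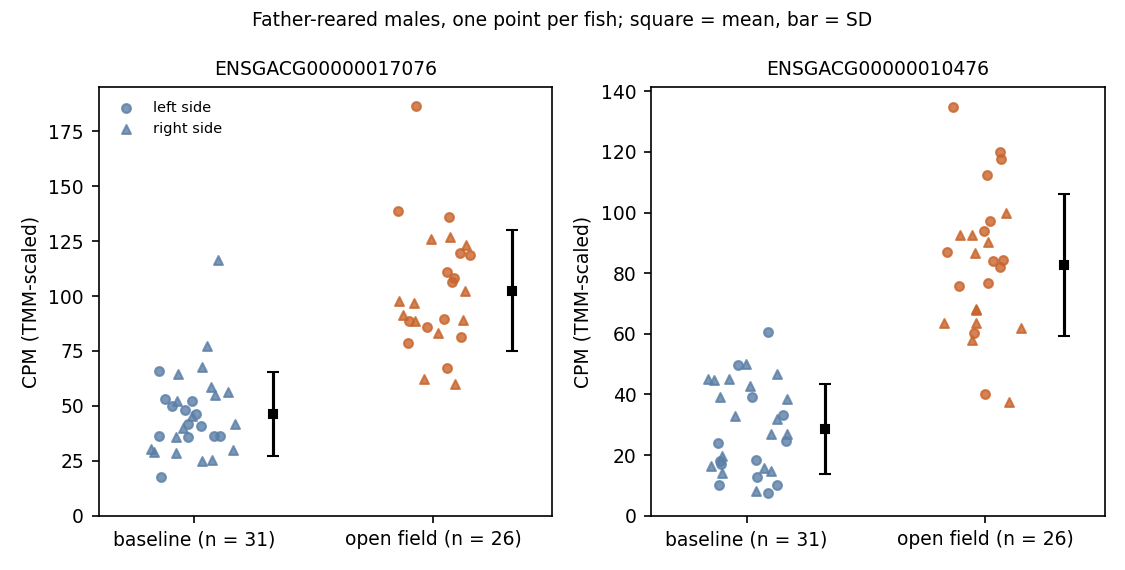
Level of the 2 genes with the lowest p in each of the 57 father-reared males (y axis, CPM after TMM scaling), by exposure (x axis); circles are left and triangles right brain sides, and squares with bars are means and SD. For ENSGACG00000010476, 22 of 26 open-field fish lie above every baseline fish, and for ENSGACG00000017076 8 of 26 do.

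The other 8 genes were weaker or more variable. Rank 3 went from 92.4 ± 49.7 CPM in baseline males to 192.6 ± 66.6 CPM in open-field males, and rank 4 from 17.4 ± 8.43 to 36.8 ± 12.6 CPM (SD, n = 31 and 26), with log2 fold changes of 1.14 (SE 0.15) and 1.07 (SE 0.14) and an edgeR adjusted p of 1.6e-06 and 1.8e-06. Rank 7 had the smallest rise, 0.38 on the log2 scale (SE 0.07, adjusted p = 0.0027), with means of 99.3 ± 21.4 CPM at baseline and 127.6 ± 27.4 CPM after the open field. Rank 9 was the least counted of the 10, with a median of 9 counts in baseline and 11 in open-field libraries. The minimum count of the low-count filter, 10, lies between these medians. Rank 9 may thus have been tested only through the open-field fish, and it was not tested in plate 2 or right sides alone. Its means were 7.91 ± 3.40 and 12.9 ± 3.93 CPM, a log2 rise of 0.79 (SE 0.16, edgeR adjusted p = 0.0059). Rank 10 had the widest spread of the 10 on the log2(CPM + 1) scale (SD 0.93 at baseline and 0.70 after the open field), with means of 21.3 ± 14.3 and 43.3 ± 22.0 CPM and a log2 rise of 1.07 (SE 0.23, adjusted p = 0.021). The remaining ranks, 5, 6 and 8, had log2 fold changes of 0.77, 0.97 and 0.57. In each of the 10 genes, at least 23 of the 26 open-field males lay above the baseline median. The 10 were chosen in these same fish, so such counts of fish follow in part from that choice.

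Values by family, the sibships of the design, are a description only. The 10 genes were called in these same fish with family in the model, so mostly positive family differences follow in part from that choice. The family mean of log2(CPM + 1) was higher in open-field than in baseline males in 8 of 8 families for 8 of the 10 genes, and in 7 of 8 families for ranks 5 and 9. For ENSGACG00000017076 the difference ran from 0.76 in family 17 to 1.68 in family 19, with a mean of 1.21 ± 0.30 (SD, n = 8 families). For ENSGACG00000010476 it ran from 1.13 in family 07 to 2.32 in family 27, with a mean of 1.68 ± 0.44 (SD, n = 8). Family 27 had 1 open-field male, so its difference rests on that fish. For rank 10 the family differences spread from 0.30 to 2.45.

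Family means also varied in level, and whether families differ beyond the spread among brothers was not tested. Family 35 was the highest of the 8 after the open field in both named genes, with mean log2(CPM + 1) of 7.18 and 6.97, and family 20 had the lowest mean log2 level of both at baseline. After the open field, family means of ENSGACG00000010476 had an SD of 0.39 on the log2(CPM + 1) scale, beside 0.28 among brothers, whereas at baseline these values were 0.25 and 0.77. For ENSGACG00000017076 they were 0.29 and 0.25 after the open field, and 0.33 and 0.44 at baseline. These spreads are given as a description, over families of 1 to 5 fish in a group. All 3 open-field males of family 35 were left sides and all 3 of family 26 were right sides, so family and side are partly tied for single families.

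**Figure D2:**
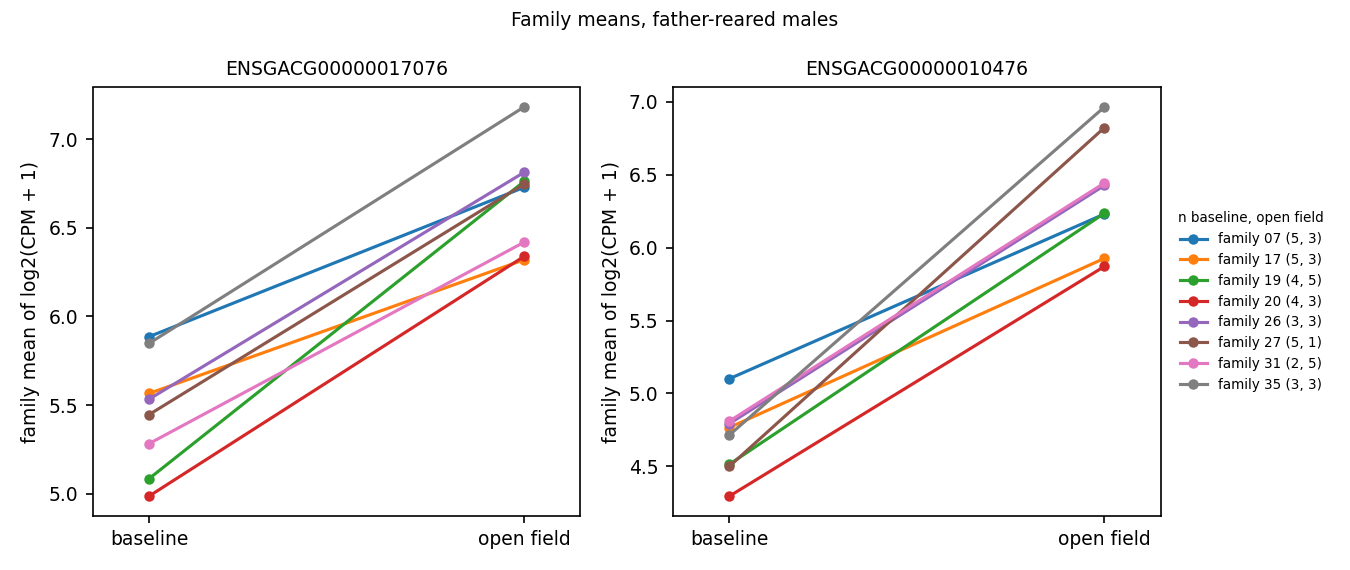
Family means of log2(CPM + 1) (y axis) for the 2 genes with the lowest p at baseline and after the open field (x axis), 1 line per family of father-reared males, with the number of fish in each group in the key. All 8 lines rise for both genes, by 0.76 to 1.68 for ENSGACG00000017076 and by 1.13 to 2.32 for ENSGACG00000010476. Both genes were chosen in these same fish.

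Among brothers with the same family and fish number in their codes, 10 pairs held 1 open-field and 1 baseline male. ENSGACG00000017076 was higher in the open-field brother in 10 of 10 pairs, with log2 differences of 1.05 to 2.33 and a median of 1.72. ENSGACG00000010476 was higher in 10 of 10 pairs, by 1.09 to 3.82 with a median of 2.09. The widest pair was that of family 35, where the baseline male had 7.58 CPM, the lowest of all 31. The other 8 genes were higher in 8 to 10 of the 10 pairs. The pairs are part of the same 57 fish and add no fish to the test.

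When any 1 family was left out, 8 to 13 genes rose and 0 fell. Rank 7 lost its call without family 31 (log2 fold change 0.33, edgeR adjusted p = 0.064), and rank 9 without family 20 (0.78, adjusted p = 0.054) or family 31 (0.76, adjusted p = 0.064). Rank 10 lost its call without family 07 (adjusted p = 0.25), 19 (0.15), 20 (0.052), 26 (0.16) or 31 (0.22), with log2 fold changes of 0.90 to 1.13. The other 7 genes were called whichever family was left out. Each of these fits reused most of the fish in which the 10 were chosen, so it is not independent of that choice.

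Fish with a high level of the first gene tended to have a high level of the second, within each group. Across the 26 open-field males, log2(CPM + 1) of ENSGACG00000017076 and ENSGACG00000010476 had a Pearson r of 0.63 (permutation test, two-sided, p = 4e-04, adjusted over the 2 relations 4e-04) and a Spearman rho of 0.53 (permutation p = 0.0053, adjusted 0.0053). Without the 2 fish farthest from the median of ENSGACG00000017076, r was 0.48. Across the 31 baseline males r was 0.64 (permutation p = 1.2e-04, adjusted 2.4e-04) and rho 0.66 (permutation p = 0.0001, adjusted 0.0002, 100000 resamples), and r was 0.62 without the 2 farthest fish. Within plates of at least 6 fish, r was 0.83 (n = 7) and 0.61 (n = 15) in open-field males and 0.76 (n = 11), 0.70 (n = 12) and 0.54 (n = 8) in baseline males. Without the 2 farthest fish of each plate, r fell to 0.34 in plate 1 and 0.43 in plate 2 in open-field males, and was 0.60, 0.69 and 0.57 in baseline males. Brothers share a family, so the fish are not fully independent. The permutations ignored family, side and plate, so their p-values may be too small for a relation among single fish.

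The same 10 genes were then followed in the other fish of the series, which share no fish with these males. In hand-reared males 12 genes rose and 0 fell (0.168% of 7156 tested). In father-reared females, which came from the same 8 families as these males, 23 rose and 1 fell (0.339% of 7072). In hand-reared females 14 rose and 0 fell (0.199% of 7040). All 10 genes had a positive log2 fold change in all 3 groups, with an unadjusted p under 0.05 in each. Over all genes tested, 4.36% had such a p in hand-reared males, 4.61% in father-reared females and 5.92% in hand-reared females, and 48.2%, 49.7% and 48.9% were positive. By adjusted p, 7 of the 10 were called in hand-reared males, 9 in father-reared females and 9 in hand-reared females. The shared genes were 58.3%, 39.1% and 64.3% of the genes that rose in those groups, and 70%, 90% and 90% of the calls in father-reared males. Of the 10, 7 were called in all 4 groups and 2 in 2 of the other 3. Rank 9 was called in none of the others, with log2 fold changes of 0.43 (SE 0.14) in hand-reared males, 0.59 (SE 0.15) in father-reared females and 0.40 (SE 0.19) in hand-reared females, beside 0.79 (SE 0.16) in father-reared males. The tests of the difference for rank 9 gave 0.19 (SE 0.22, edgeR unadjusted p = 0.39) for males against females and 0.25 (SE 0.18, unadjusted p = 0.17) for father-reared against hand-reared males.

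Levels of the named genes in the other groups give the scale of these rises. ENSGACG00000017076 rose from 52.3 ± 18.5 to 114.6 ± 24.3 CPM in hand-reared males (SD, n = 39 and 27), from 44.5 ± 16.2 to 115.3 ± 24.3 CPM in father-reared females (n = 26 and 35) and from 58.6 ± 25.5 to 110.0 ± 30.3 CPM in hand-reared females (n = 25 and 32). ENSGACG00000010476 rose from 28.9 ± 12.7 to 76.1 ± 24.7 CPM, from 25.0 ± 13.7 to 82.4 ± 19.1 CPM and from 30.0 ± 16.8 to 73.5 ± 24.9 CPM in the same order. Its open-field means thus lay within 73.5 to 82.7 CPM in the 4 groups, and its baseline means within 25.0 to 30.0 CPM.

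**Figure D3:**
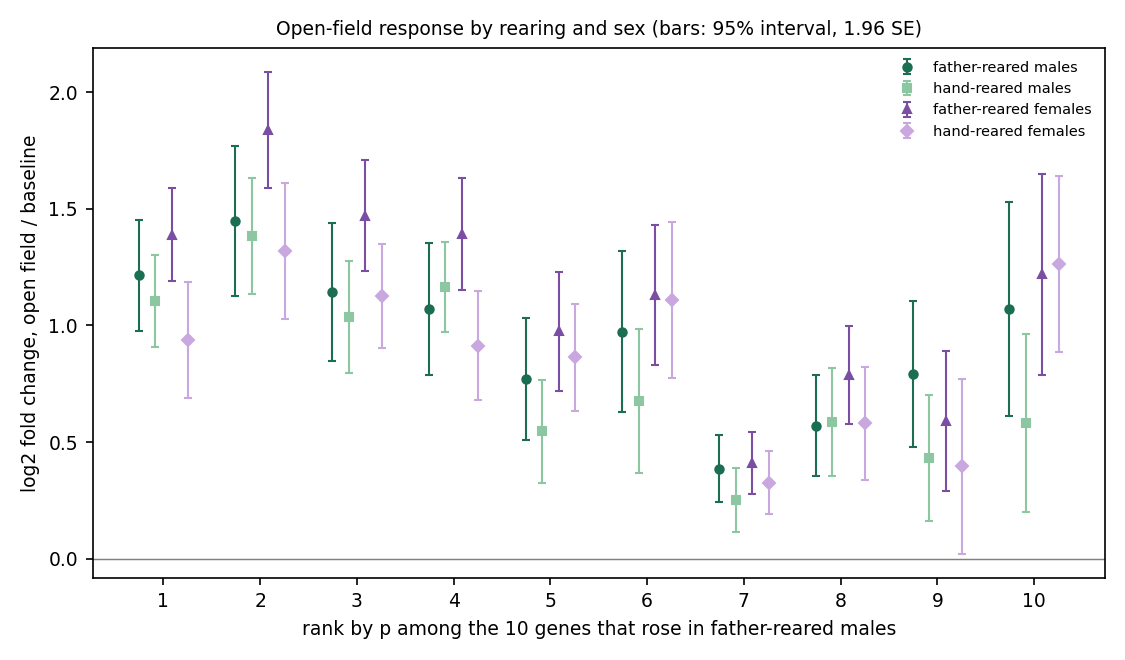
Log2 fold change of open field over baseline (y axis) for the 10 genes that rose in father-reared males, ordered by p (x axis), in the 4 groups of rearing and sex; bars are 95% intervals. All 40 points lie above 0, and the father-reared female point is the higher of the father-reared pair in 9 of the 10 genes.

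Genes that rose in the other groups were mostly higher in father-reared males too. Of 15 genes called as rising in at least 1 of the other 3 groups and not in father-reared males, 13 were tested in them, 13 had a positive log2 fold change and 9 had an unadjusted p under 0.05. Their median was 0.28, with a range of 0.011 to 0.99. Over all 6920 genes 50.6% were positive, and 6.13% had an unadjusted p under 0.05. These genes were chosen by calls in other fish and by the lack of a call in father-reared males, so the males' own values helped choose them. With the 9 shared genes kept, the list held 24 genes, of which 22 were tested in father-reared males. All 22 were positive, with a median of 0.43, and 18 had an unadjusted p under 0.05 by edgeR. Of the other fish, the father-reared females share families with the males. Across all genes tested in both, log2 fold changes in father-reared males had a Pearson r of 0.24 with those of hand-reared males (6852 genes), 0.070 with father-reared females (6835 genes) and 0.057 with hand-reared females (6783 genes). Spearman's rho was 0.063, 0.0099 and -0.028 in the same order, and 52.2%, 50.6% and 48.4% of genes had the same sign. Genes are not independent replicates, and these values describe the tables only.

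A list chosen without any father-reared fish gave each of the 57 males a summary value. It holds the 16 genes that rose in hand-reared males or in hand-reared females, and the value is the mean of log2(CPM + 1) over them. Of the 16, 14 were tested in father-reared males, and 9 were among the genes called as rising there. The value thus covers in part the same genes and fish as those calls, and is not a separate line of evidence for them. Baseline males ranged from 4.74 to 6.09 with a median of 5.17, and open-field males from 5.27 to 6.28 with a median of 5.88. No open-field fish lay below the baseline median, 25 of 31 baseline fish lay below the lowest open-field fish, and 7 of 26 open-field fish lay above the highest baseline fish. The open-field mean was higher in 8 of 8 families, by 0.53 in family 20 to 0.96 in family 27, with a mean difference of 0.76 ± 0.16 (SD, n = 8 families). In 5 of the 8 families the open-field and baseline brothers did not overlap. Among these were family 27, with 1 open-field male, and family 31, with 2 baseline males. Groups this small can fail to overlap by chance, and the difference in family 27 rests on 1 fish.

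The highest baseline value belonged to fish 35C3, at 6.09, with the next baseline fish at 5.56. This fish was above the open-field median in 7 of the 10 genes that rose in father-reared males and was the highest baseline fish in 6 of them. In the 2 named genes it had 64.7 and 44.6 CPM, above the baseline and below the open-field medians. Its depth (910090 counts) and its median correlation with other baseline males (0.932) lay within the ranges of the 57 libraries. Without its family, 35, there were 12 genes that rose, among them all 10.

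**Figure D4:**
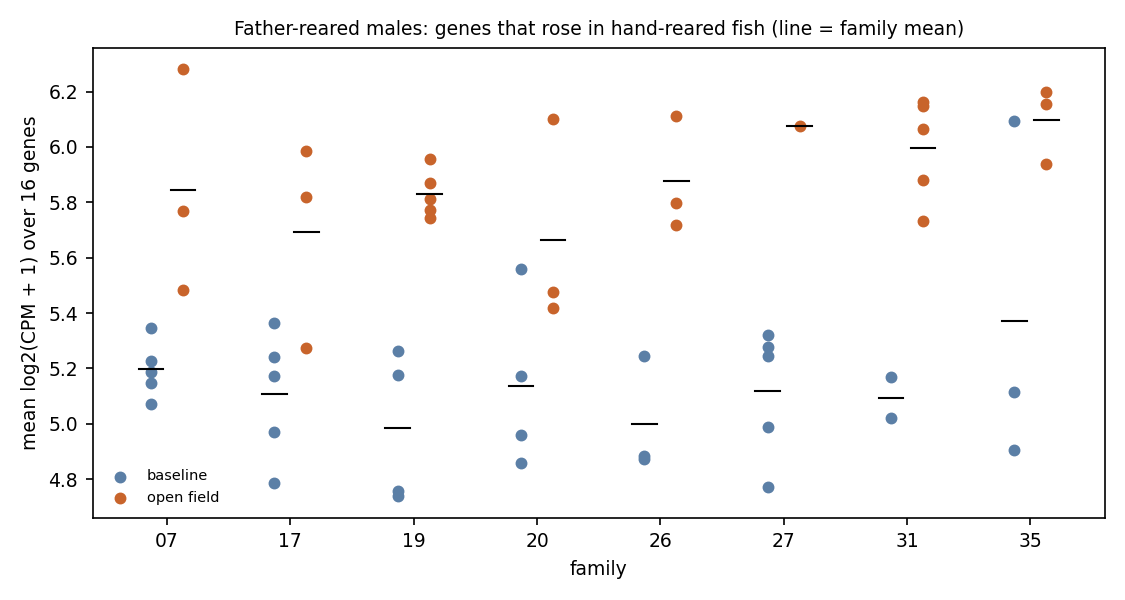
Mean of log2(CPM + 1) over the 16 genes that rose in hand-reared fish (y axis) for each father-reared male, by family (x axis) and exposure; short lines are family means. Open-field means are higher in 8 of 8 families, and the baseline fish at 6.09 in family 35 lies among open-field fish. Of the 16 genes, 9 were also called as rising in father-reared males.

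Whether the response of father-reared males differed from that of father-reared females was tested as the sex-by-exposure term over the 57 males and 61 females raised by fathers. EdgeR called no gene (0% of 7639), while 359 genes, or 4.7%, had an unadjusted p under 0.05. By DESeq2 1 gene was called. The term was negative, meaning a smaller rise in males, for 9 of the 10 genes, with a median of -0.21 on the log2 scale, and 2 of the 10 had an unadjusted p under 0.05. Over all genes tested 51.4% were negative, and the 10 are not separate observations, since levels of the named genes were related across fish. For ENSGACG00000010476 the male rise was smaller by 0.43 (term -0.43, 95% interval -0.83 to -0.022, unadjusted p = 0.041, edgeR adjusted p = 0.98). For ENSGACG00000017076 the term was -0.21 (95% interval -0.52 to 0.095, adjusted p = 0.98). The largest of these differences that the intervals allow for the named genes is thus below 1 log2 unit, and smaller ones were not settled by the test.

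Whether father-reared males responded differently from hand-reared males was tested on counts summed within family and exposure, with 8 families per rearing group. These sums ran over sides and plates, so the model had no side or plate term. EdgeR again called no gene (0% of 11183), while 418 genes, or 3.74%, had an unadjusted p under 0.05. By DESeq2 0 were called. For ENSGACG00000017076 the father-reared minus hand-reared response was 0.0035 (95% interval -0.32 to 0.33), and for ENSGACG00000010476 it was 0.097 (95% interval -0.21 to 0.40), both with an edgeR adjusted p of 1.00. Of the 10 genes, 0 had an unadjusted p under 0.05 for this term. With single fish as the unit, 0 genes were called too. Without a filter on low counts, edgeR called 21 genes with a larger and 4 with a smaller response in father-reared males. Of these 25 genes, 4 were below the filter of the main test, and the others were tested there without a call. Calls for this term thus depended on the filter, and the cause was not tested.

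The rise in father-reared males was larger in left than in right brain sides for each of the 9 genes of the 10 that could be compared. Among all 7486 genes in the test of the difference between sides, 50.4% had the larger response on the left. In edgeR's test of the difference between sides no gene was called, and in DESeq2's 1 gene was called, with the larger response on the right. Fitted on left sides alone (13 baseline and 14 open-field fish), 12 genes rose (0.179% of 6709 tested), among them all 10, and 486 genes, or 7.24%, had an unadjusted p under 0.05. The 10 had log2 fold changes from 0.51 to 2.08 on the left, with a median of 1.43. Fitted on right sides alone (18 and 12 fish), 0 of 6875 genes were called by edgeR, with 331, or 4.81%, at an unadjusted p under 0.05. Of the 10 genes, 9 were tested on the right, and all 9 were positive, from 0.31 to 1.17 with a median of 0.85. Both sides are parts of the 57 fish in which the 10 were chosen. They also drew on partly different families. On the left, family 19 had 0 baseline and family 26 had 0 open-field males. On the right, families 27 and 35 had 0 open-field males. With family as block, such a family gave no contrast on that side. For ENSGACG00000010476 the family differences were 2.32 and 2.25 in families 27 and 35, beside 1.72 and 1.64 in families 19 and 26. For ENSGACG00000017076 they were 1.30 and 1.34 in families 27 and 35, beside 1.68 and 1.28 in families 19 and 26. All open-field males of families 27 and 35 were left sides, so in their differences family and side cannot be told apart. ENSGACG00000010476 went from 25.0 ± 16.3 to 90.4 ± 25.0 CPM on the left and from 31.1 ± 13.6 to 73.6 ± 18.6 CPM on the right, and its left value was lower at baseline and higher after the open field.

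The side-by-exposure term over the 57 males tests that difference directly. It called 0% of 7486 genes (edgeR), while 300 genes, or 4.01%, had an unadjusted p under 0.05. The term was positive, a larger response on the left, for 10 of the 10 genes, with a median of 0.45 and a range of 0.20 to 1.17, and 3 of the 10 had an unadjusted p under 0.05. Among all 7486 genes tested, 50.4% had a positive term. For ENSGACG00000010476 it was 0.73 (95% interval 0.084 to 1.37, unadjusted p = 0.031, edgeR adjusted p = 1.00) and for ENSGACG00000017076 0.36 (95% interval -0.12 to 0.83, adjusted p = 1.00). Since the levels of the named genes were related across fish, 10 of 10 is not 10 separate observations. Family and side are partly tied in this term as well.

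**Figure D5:**
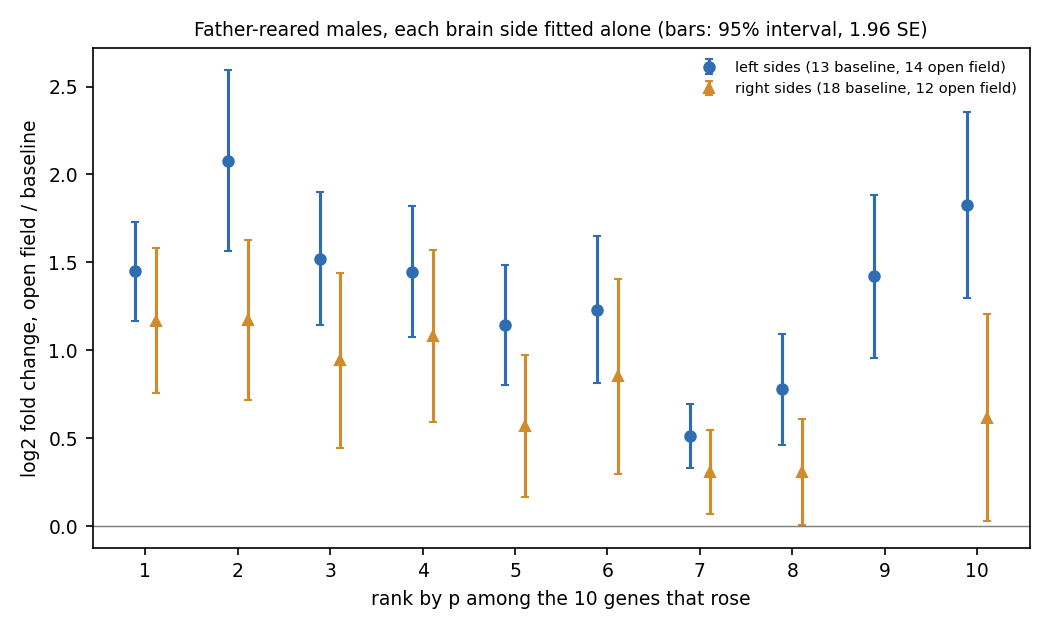
Log2 fold change of open field over baseline (y axis) for the 10 genes that rose in father-reared males, ordered by p (x axis), with left (circles) and right (triangles) brain sides fitted alone; bars are 95% intervals. The left value is the higher in each of the 9 genes tested on both sides, and the intervals of rank 10 are the only ones of the 9 that do not overlap. The sides drew on partly different families.

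Within single plates few genes passed the test. The plates are parts of the 57 fish in which the 10 genes were chosen, so their signs there are a description. The 10 were positive in plate 1 (10 of 10 tested), plate 2 (9 of 9) and plate 3 (10 of 10), with medians of 1.06, 0.71 and 0.90 on the log2 scale, while 49.7%, 49.9% and 51.5% of all genes tested were positive. By edgeR, calls numbered 1 in plate 1 (7 open-field against 11 baseline males, 0.0143% of genes tested), 3 in plate 2 (15 against 12, 0.0446%) and 0 in plate 3 (4 against 8). At an unadjusted p under 0.05 there were 4.4%, 6.94% and 4.28% of the genes tested in plates 1, 2 and 3, which is 321 genes in plate 3. ENSGACG00000017076 rose by 1.16 (SE 0.23), 1.12 (SE 0.15) and 1.27 (SE 0.25) in the 3 plates. ENSGACG00000010476 rose by 1.63 (SE 0.38), 1.28 (SE 0.22) and 0.90 (SE 0.32) in the same order. The edgeR adjusted p was 0.21, 0.0015 and 0.63 for the former and 0.47, 0.016 and 0.999 for the latter. Both were thus called in plate 2 and in neither other plate. In plate 3 only families 19 and 31 held both groups. With family as block, the other fish of that plate gave no exposure contrast.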

How the data were processed

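Per the labels' protocols, RNA from the left or right part of each brain was made into 3′ tag libraries and read on 6 lanes of 100 nt. The authors deposited raw counts per gene, library and lane (1452 columns, all matched to a fish by library name). Per the submitters' processing notes, FastQC 0.11.8, STAR 2.2.3a and HTSeq 0.9.1 were used. The sources used here do not give the genome build, annotation release, duplicate removal or strand setting, so counts of gene copies and of overlapping or antisense genes are uncertain, and intervals cover no error from duplicates.

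Here lanes were summed, and the 1 library under 500000 counts (2055, a hand-reared open-field male) was left out. The closest 2 libraries of a group among the father-reared males still differed beyond sampling noise (chi-square over degrees of freedom 2.97), so no library was treated as a copy. Genes passed edgeR's filterByExpr (minimum count 10). Tests were edgeR 4.0.16 quasi-likelihood F-tests (R 4.3.3) with TMM and Benjamini-Hochberg adjustment over all genes tested, called at 0.05, with family (leading number of the fish code) as block and side and plate as terms. The rearing term used family sums, with family as block and without side or plate terms. SE is the log2 fold change over the square root of F, and intervals are 1.96 SE. Half-sib links between families are not in the labels and were not modelled. Relations used log2(CPM + 1). Named genes are the 2 called genes with the lowest p in each direction. Lists of named genes written beforehand could not be used without gene names. DESeq2 1.42.0, limma-voom (limma 3.58.1) and the other alternatives are in the closing section. The scripts were also run on simulated counts, with genes changed in both directions and no side or plate effects. That setting differs from these data, so the run gives no error rate for the calls here. The samples, lists and comparisons were chosen with earlier results of these data known, and the list of 16 genes, the brother pairs and the values by family were added after values were seen.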

Additional observations from a re-analysis of the deposited data

Results flagged for a closer look

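Among 24 sets of 4 to 10 values for the named genes and families, 3 held a value far from the rest, where chance gives about 1 in 20. In baseline males of family 07, fish 07C5 had 116.3 CPM of ENSGACG00000017076, with the next brother at 56.5 CPM. In baseline males of family 19, fish 19C8 had 46.8 CPM of ENSGACG00000010476, with the next brother at 19.8 CPM. In open-field males of family 31, fish 31E4 had 60.2 CPM of ENSGACG00000010476, below the next brother at 92.7 CPM.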

How the results depend on the processing

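The count of 10 genes that rose and 0 that fell in father-reared males stayed within 1.5 times under other size factors (10), DESeq2 (11), limma-voom (11) and no low-count filter (14), without the plate term (12), the side term (10) or the family block (12), as well as under family sums (9), all libraries in 1 fit (12), left sides alone (12) and each family left out (8 to 13). It moved to 1, 3 and 0 in plates 1, 2 and 3 alone and to 0 in right sides alone (30 fish, beside 27 for the 12 genes of left sides alone); the cause was not tested. With the matched sibling number as replicate block, on the 10 pairs, 7 genes rose, 6 of them among the 10. Ranks 5, 7 and 8 were not called with that block (edgeR adjusted p = 0.079, 0.20 and 0.72), rank 9 was not tested, and the log2 fold changes of ranks 3 and 10 were 1.74 and 1.80, beside 1.14 and 1.07 without it. Under family sums 8 of the 9 genes were among the 10, without ranks 9 (adjusted p = 0.061) and 10 (0.10), and in the fit of all libraries rank 10 was not called (0.066). Same-numbered brothers had correlated deviations over 0.1 in 8 of 10 pairs (median 0.25), beside 60 of 85 pairs of other brothers (median 0.18). Among fish of the other exposure, 9 of 20 fish were closest to the one with their own number. The labels do not say that numbers mark pairs, and these values do not settle it. The main test used family, not number, as block. Over the 10 genes and all settings, 78.9% of values stayed called, 48 lost the call and 0 reversed.

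Calls moved elsewhere as follows. DESeq2 called 1 gene higher for sex by exposure and 1 lower for side by exposure. Without the filter, rearing by exposure gave 21 higher and 4 lower. Genes that fell numbered 1 (DESeq2) and 2 (no filter) in hand-reared males, 2 (DESeq2) in father-reared females and 1 (no filter) in hand-reared females. The causes were not tested. A pseudocount of 0.5 left both relations at 0.63 and 0.64. The 2 genes below the filter among the 14 called without it averaged at most 8.75 counts a library.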
